A study of Mus musculus with 13 samples.

Results

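Forkhead factors are transcription factors that bind DNA through a winged-helix domain, and in mammals they form a large family of subclasses named by letters. The peaks assigned to 10 mouse forkhead genes were examined in LβT2 cells, an immortalised mouse line of pituitary gonadotropes, the cells that make luteinising and follicle-stimulating hormone. The genes were Foxl2, Foxo1, Foxo3, Foxp1, Foxp2, Foxp4, Foxk1, Foxj3, Foxn3 and Foxa2. A peak belonged to one of them when the deposited annotation named that gene as the nearest and placed the peak no more than 100 kb from the gene's start. The rule took 556 of 538751 peaks in 12 lists, and 9 of the 10 genes had at least 1 such peak. Foxa2 had none. Merged across the 4 libraries of an antibody wherever they shared at least 1 bp, the peaks gave 13 of 8602 SMAD2/3 regions, 107 of 124781 FOXL2 regions and 56 of 53008 H3K27ac regions. The farthest peak inside the limit lay 99.2 kb from the Foxp2 start and the nearest one outside lay 104.8 kb from it. Another 69 peaks, 37 at Foxp1 and 32 at Foxp2, named a member gene from beyond the limit and were not counted.

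FOXL2 is a forkhead factor of gonadotropes and ovarian granulosa cells. In gonadotropes it works with SMAD proteins at Fshb, the gene for the β subunit of follicle-stimulating hormone. Activin binds serine/threonine kinase receptors that phosphorylate SMAD2 and SMAD3, which enter the nucleus and bind DNA beside partner factors, of which forkhead proteins are a textbook example. Acetylation of histone H3 at lysine 27 (H3K27ac) marks active promoters and enhancers.

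All cells carried a lentiviral cassette with constitutive GFP and a doxycycline-inducible FLAG-mFoxL2 (tagged mouse FOXL2), and all had 48 h of doxycycline before treatment. Vehicle or activin A at 1 nM was then given for 1 h. For each of 3 antibodies, against SMAD2/3, FLAG and H3K27ac, there were 2 vehicle and 2 activin libraries, each from 3 pooled plates. The FLAG antibody, called FOXL2 below, reports the induced tagged protein and not the cell's own FOXL2, and cells without the cassette or without doxycycline were not analysed here. A Protein-A control sample is described by the submitters, and its data were not analysed here. Nothing says that the 2 libraries of a group came from independent cultures, so their spread may be technical.

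The number of reads behind each list is unknown, and list lengths ran from 144 to 605 peaks for SMAD2/3 with vehicle and from 5970 to 7784 with activin, from 83834 to 97701 for FOXL2 and from 38995 to 41763 for H3K27ac. The gonadotrope label was checked on acetylation within 1 kb of gene starts. Of 10 gonadotrope markers, 9 had an H3K27ac peak in all 4 libraries and Fshb had none in any. None of the 6 markers of other pituitary lineages with a known start had a peak in any library. Of 4 stem, stromal, endothelial or blood markers with a known start, 1 (Pecam1) had a peak in a single library.

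The deposited annotation keeps 1 start per gene, and this decides which regions carry a member's name. For Foxl2, Foxo1 and Foxk1 that start lay within 0.001 kb of the 5′ end in RefSeq (GRCm38.p6). It lay inside the gene for the others with a long span: 18.3 kb from the 5′ end for Foxo3, 45.7 kb for Foxp4, 170.6 kb for Foxn3, 352.9 kb for Foxp2 and 478.3 kb for Foxp1. For Foxj3 it lay at -2.66 kb. Distances below are the deposited ones, from the gene's start (negative upstream) to the centre of a peak. For a merged region the distance is that of its peak nearest the start, so it can differ from the distance to the middle of a broad region. Coordinates are those of the deposited files (GRCm38/mm10, per the submitters' processing notes), counted from 1.

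Promoter sequence is shown for 3 members to set their acetylation beside their base composition. RefSeq held 12 promoter windows for 8 of the 10 genes, with none for Foxp2 or Foxk1. Each line gives the 250 bases before the start, 5′ to 3′ on the gene's strand, with CG dinucleotides in capitals. The first is Foxl2 (chr9:98955357-98955606, plus strand), then the start of Foxp1 that lies inside the gene (chr6:99028299-99028548, minus strand) and last Foxo1 (chr3:52268087-52268336, plus strand).
Foxl2: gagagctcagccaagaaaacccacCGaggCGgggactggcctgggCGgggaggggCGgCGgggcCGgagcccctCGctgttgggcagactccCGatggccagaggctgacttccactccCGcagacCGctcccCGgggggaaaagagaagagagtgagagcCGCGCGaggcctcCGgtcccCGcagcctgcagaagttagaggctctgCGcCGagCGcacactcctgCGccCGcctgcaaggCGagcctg
Foxp1: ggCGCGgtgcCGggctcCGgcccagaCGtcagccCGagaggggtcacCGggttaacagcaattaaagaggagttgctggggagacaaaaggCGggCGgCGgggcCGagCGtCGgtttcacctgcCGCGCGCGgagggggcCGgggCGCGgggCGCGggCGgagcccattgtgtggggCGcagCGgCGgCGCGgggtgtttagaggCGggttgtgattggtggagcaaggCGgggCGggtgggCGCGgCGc
Foxo1: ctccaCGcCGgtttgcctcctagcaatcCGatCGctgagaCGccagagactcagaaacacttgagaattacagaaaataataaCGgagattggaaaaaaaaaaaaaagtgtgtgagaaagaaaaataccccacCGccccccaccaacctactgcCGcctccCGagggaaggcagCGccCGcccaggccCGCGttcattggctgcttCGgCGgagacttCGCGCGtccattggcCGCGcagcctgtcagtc
These windows held 22, 34 and 20 CG dinucleotides and 70.8%, 74% and 56% G or C. The medians over 32851 RefSeq windows of this length were 6 and 52.4%. Windows of Foxl2 and of this Foxp1 start were covered by an H3K27ac peak in all 4 libraries. The Foxo1 window was covered by none, so CG-rich sequence was found at both acetylated and unacetylated starts.

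3 motifs were searched on both strands of these windows. The forkhead core GTAAACA was in 3.17% of all RefSeq windows, the SMAD box CAGACA in 17.1% and the palindromic SMAD element GTCTAGAC in 0.167%. Among the 12 windows of the members, CAGACA occurred once, at Foxn3, and the other 2 motifs did not occur. No FOXL2 or SMAD2/3 peak in any library reached into the 3 windows printed.

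The first comparison asked how many peaks each target had at these genes with and without activin. SMAD2/3 had 1 peak in each vehicle library and 10 in each activin library, a log2 difference (after adding 1) of 2.46. The 2 treatments did not overlap. FOXL2 had 90 and 82 peaks (vehicle) against 94 and 92 (activin), again without overlap. The log2 difference was 0.11 and the pooled SD between replicates 0.068. Leaving out the first vehicle library gave 0.18 and leaving out the second gave 0.047. The FOXL2 counts overlapped between treatments without Foxp2 (27 and 29 against 29 and 32) and when RefSeq gene spans were counted (196 and 185 against 203 and 188). Counting any region within 100 kb whatever its nearest gene gave 149 and 137 against 159 and 149, where the lower activin count equalled the higher vehicle count. H3K27ac had 47 and 48 peaks (vehicle) against 40 and 41 (activin). Their log2 difference was -0.22 and the pooled SD 0.023. An exact two-sided permutation test gave p = 0.333 in each of the 3 comparisons, the smallest value that 2 libraries against 2 allow. Foxp2 alone held 329 of the 556 peaks (59.2%). Without Foxp2 the H3K27ac counts were 25 and 22 (vehicle) against 25 and 27 (activin), which overlap, with a log2 difference of 0.14. At a −log10 q of at least 5 the H3K27ac counts of all members, Foxp2 included, were 19 and 15 against 19 and 16, which overlap as well.

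As a share of each list the differences were small or irregular. Forkhead genes took 0.165% and 0.694% of the SMAD2/3 peaks with vehicle, where 1 peak makes up either share, and 0.128% and 0.168% with activin (exact permutation p = 0.667). They took 0.104% and 0.0978% of FOXL2 peaks with vehicle and 0.0962% and 0.0979% with activin (exact permutation p = 0.667). The H3K27ac shares were 0.114% and 0.119% (vehicle) against 0.0958% and 0.105% (activin), with an exact permutation p of 0.333. Only for H3K27ac were both activin shares on the same side of both vehicle shares. That difference, -0.016 percentage points, changed direction at a −log10 q of at least 5 (0.0095) and without Foxp2 (0.0069).

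**Figure D1:**
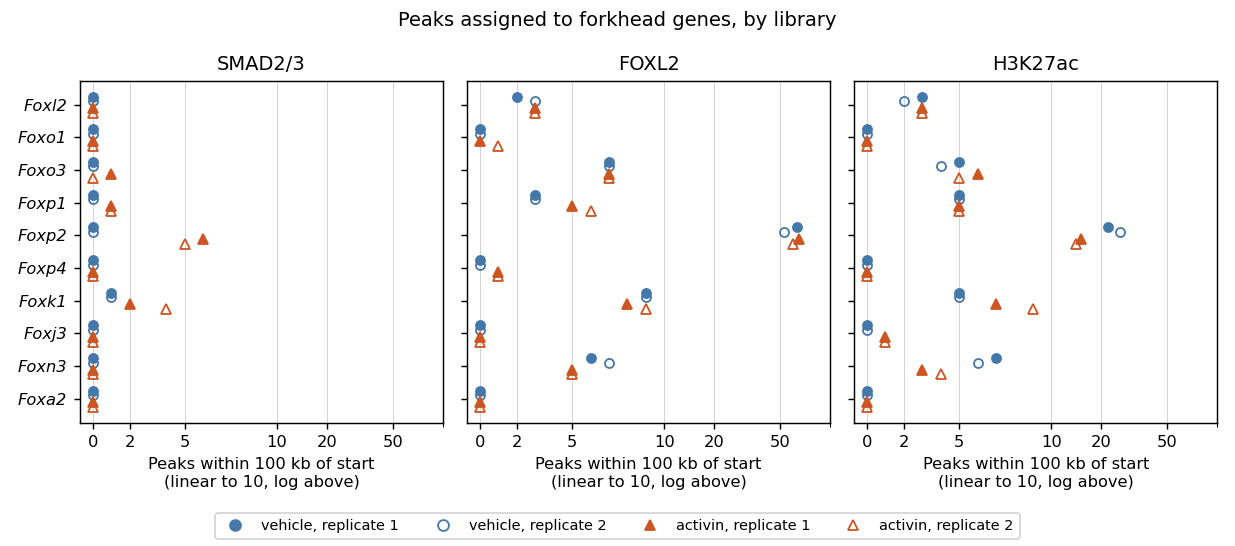
Number of peaks within 100 kb assigned to each of 10 forkhead genes (vertical axis) in each library, for SMAD2/3, FOXL2 and H3K27ac. The horizontal axis is linear up to 10 peaks and logarithmic above; circles are vehicle and triangles activin, filled for replicate 1 and open for replicate 2. Foxp2 lies far to the right for FOXL2 (53 to 65 peaks) and its H3K27ac points separate by treatment (22 and 26 against 15 and 14).

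Gene by gene, SMAD2/3 peaks were more numerous in both activin than in both vehicle libraries at 3 of the 4 genes that had any: Foxp1, Foxp2 and Foxk1. Over all genes with a SMAD2/3 peak within 100 kb, 63.4% had that order, so the share at forkhead genes was near the background. No member had fewer SMAD2/3 peaks in both activin libraries (0.0205% over all genes). FOXL2 peaks were more numerous in both activin libraries at 2 genes, Foxp1 and Foxp4 (17.9% over all genes), and fewer at 1, Foxn3 (5.77%). H3K27ac peaks were more numerous in both activin libraries at Foxk1 and Foxj3 (10.3% over all genes) and fewer at Foxp2 and Foxn3 (11%). At the other members the treatments overlapped.

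Foxl2 (ENSMUSG00000050397) is the gene of the factor that was tagged and induced. It lies on chromosome 9, in a single exon of 2.52 kb. Its nucleotide sequence is shared with the FLAG-mFoxL2 coding sequence as far as the cassette retains it, so reads of the cassette and reads of the gene body cannot be told apart there, and the part of such reads in the values below was not tested. Acetylation was strong: a region of 9.56 kb, chr9:98956664-98966223, had fold enrichments (the authors' values) of 11.6 and 9.87 (vehicle) against 12.3 and 11.5 (activin). Its percentile in each list by −log10 q lay between 98.1 and 99.2. It ranked 295th by width among 53008 H3K27ac regions.

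The start of Foxl2 itself lay in a second broad acetylated region, chr9:98951728-98956329, which the annotation files under Foxl2os, the antisense gene beside it. That region had fold enrichments of 7.13, 6.52, 7.56 and 8.20 in vehicle 1, vehicle 2, activin 1 and activin 2. Both activin values were above both vehicle values, and this difference between lists was not tested. Foxl2 had 3, 2, 3 and 3 H3K27ac peaks in that order, covering 8.89, 9.63, 10.2 and 9.39 kb. Neither the peak number nor the covered length separated the treatments.

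FOXL2 occupied the acetylated domain downstream of the Foxl2 start. The strongest site, chr9:98957606-98958536 at 2.46 kb, had fold enrichments of 11.5 and 14.7 (vehicle) against 12.1 and 13.0 (activin). It overlaps the end of the single exon. A weaker site at 6.52 kb, chr9:98962029-98962248, gave 4.56 and 6.50 (vehicle) against 6.84 and 6.37 (activin). Both were present in all 4 libraries, and their values overlapped between treatments. A site further on, chr9:98966637-98966932 at 11.2 kb, was called only with activin (4.49 and 3.50), near the low end of the FOXL2 lists at percentiles of 15.6 and 1.48. Upstream of the start, FOXL2 regions filed under Foxl2os were called as well. Those at -11.3 kb, chr9:98944139-98944399 (5.52 and 5.87), and -5.98 kb, chr9:98949469-98949784 (3.72 and 2.93), were called only with activin. The one at -0.71 kb, chr9:98954728-98955073, was called in vehicle replicate 2 alone (5.78).

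No SMAD2/3 peak was assigned to Foxl2 in any library. The nearest SMAD2/3 region, chr9:98921663-98922008, lay at -33.8 kb from its start and is filed under Gm28266. It was called in both activin libraries (12.3 and 13.3) and in neither vehicle library. A FOXL2 region covered the same place in all 4 libraries, with fold enrichments of 8.12 and 6.88 (vehicle) against 8.75 and 12.7 (activin). The H3K27ac region chr9:98921984-98924061 overlapped the edge of these SMAD2/3 and FOXL2 regions. It was also present in all 4 libraries, between 3.81 and 4.70.

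**Figure D2:**
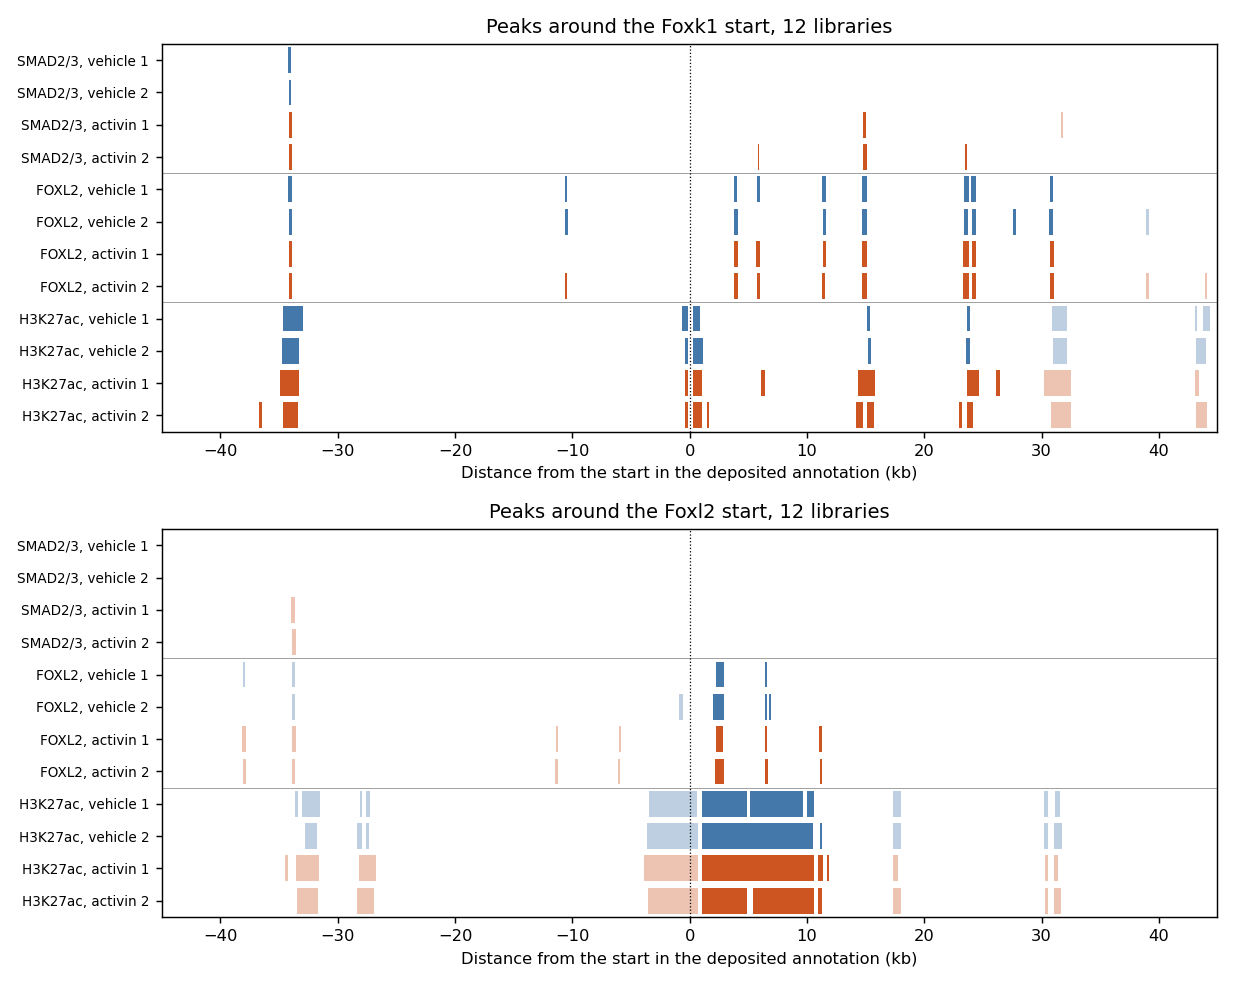
Peaks around the starts of Foxk1 (top) and Foxl2 (bottom) in the 12 libraries; the horizontal axis is the distance from the annotated start in kb, in the direction of transcription. Each bar is a peak, blue for vehicle and orange for activin, pale where the nearest gene is another one. At Foxk1 a SMAD2/3 bar at -34.0 kb is present in all 4 libraries and one at 14.9 kb only with activin; at Foxl2 the acetylated block upstream of the start is pale because it is filed under Foxl2os.

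The FOXP factors are mostly repressors that carry a zinc finger and a leucine zipper and bind DNA as dimers, and FOXP2 is best known for its role in the development of speech circuits. Foxp2 (ENSMUSG00000029563, chromosome 6, plus strand) had 63 and 53 FOXL2 peaks (vehicle) against 65 and 60 (activin). This was the highest number of any of 24361 genes in each of the 4 libraries, against a median of 1.75 per library over those genes. The number of peaks that fall to a gene depends on how far away its neighbours lie. Counting every FOXL2 region within 100 kb of a start whatever its nearest gene, and present in both libraries of a treatment, gave 63 at Foxp2. That placed it in position 3 among 26367 starts, where the median was 8 and the highest 69. By the same count Foxp2 had 18 H3K27ac regions (409th, median 5) and 4 SMAD2/3 regions (284th, median 0). The density at Foxp1 was 22 FOXL2 regions, while Foxl2, Foxo3 and Foxj3 had 9 each, Foxk1 12, Foxn3 8 and Foxp4 3.

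Of the 70 FOXL2 regions at Foxp2, 61 were intronic, 42 were present in all 4 libraries, 4 were activin-only (a peak in both activin and neither vehicle library) and 2 were vehicle-only. Over all FOXL2 regions within 100 kb of a start, 47.1% were in all 4 libraries, 8.72% activin-only and 3.25% vehicle-only. The region with the highest mean percentile, chr6:15281903-15283202 at 28.3 kb, had fold enrichments of 24.5 and 22.5 with vehicle and 19.3 in both activin libraries. Another strong site was chr6:15276962-15277586 at 23.0 kb (41.2, 25.7, 29.2 and 25.8 in vehicle 1, vehicle 2, activin 1 and activin 2). The merged region chr6:15202038-15204123 at -50.5 kb joined neighbouring peaks. The strongest peak of each library there gave 25.6, 16.5, 27.5 and 25.6, not all at the same place. The peaks of that region nearest the start gave 25.6, 14.1, 24.1 and 22.8 in the same order.

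To compare strength between libraries on lists of equal length, each FOXL2 region present in all 4 libraries was given its percentile by −log10 q among the 58444 such regions (its common rank). At Foxp2, 17 of 42 regions ranked higher in both activin than in both vehicle libraries, 18 ranked higher in both vehicle libraries and 7 were mixed. Over all such regions within 100 kb of a start, 25.8% ranked higher in both activin libraries and 33.1% in both vehicle libraries. The site at 16.8 kb, chr6:15270780-15271461, stood at 54.6 and 33.1 (vehicle) against 95.5 and 94.4 (activin), and its fold enrichments were 10.8 and 6.21 against 34.1 and 29.4. The site at -60.8 kb, chr6:15193002-15193789, stood at 40.0 and 11.3 against 87.9 and 86.1. The one at 4.5 kb, chr6:15258616-15259097, stood at 1.17 and 1.21 against 51.2 and 41.4. These sites of Foxp2 were named for their higher rank with activin after their values were seen.

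Other FOXL2 sites of Foxp2 went the opposite way. At chr6:15298038-15298383, 43.9 kb from the start, the common rank was 54.6 and 59.1 (vehicle) against 18.6 and 6.44 (activin). At chr6:15253523-15253889, -0.57 kb from the start, it was 54.5 and 59.8 against 16.5 and 20.6. Neighbouring FOXL2 sites of Foxp2 thus differed in direction. Among the 4 activin-only FOXL2 regions, chr6:15211942-15212279 had fold enrichments of 11.3 and 6.85, and the other 3 (chr6:15199461-15199772, chr6:15224200-15224437 and chr6:15285937-15286152) ranged from 3.66 to 5.31.

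SMAD2/3 was found at Foxp2 only in activin libraries, with 6 and 5 peaks in 7 regions. Of these 7, 4 were activin-only, against 54.1% of all SMAD2/3 regions within 100 kb. The strongest of any forkhead gene was chr6:15226262-15226674 at -27.8 kb, in intron 2 of 3 of the annotated transcript, with fold enrichments of 13.8 and 12.5. It was 174th of 7784 and 186th of 5970 peaks. FOXL2 at this site, chr6:15226208-15226724, had fold enrichments of 3.60 and 4.34 (vehicle) against 9.28 and 9.58 (activin), and common ranks of 4.66 and 22.2 against 64.5 and 69.9.

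The other activin-only SMAD2/3 regions of Foxp2 were weaker. They were chr6:15229426-15229862 at -24.6 kb (6.91 and 4.09), chr6:15184912-15185197 at -69.2 kb (4.62 and 4.81) and chr6:15253541-15253795 at -0.60 kb (3.74 and 4.08). The last 2 have the class promoter in the deposited annotation. At all 4 a FOXL2 region and an H3K27ac region, each called in the 2 activin libraries, overlapped the site. Although SMAD2/3 was called at -0.60 kb only with activin, FOXL2 there had the lower common rank with activin given above. A SMAD2/3 peak at the 16.8 kb site, chr6:15271051-15271224, was called in activin replicate 1 alone (5.65).

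**Figure D3:**
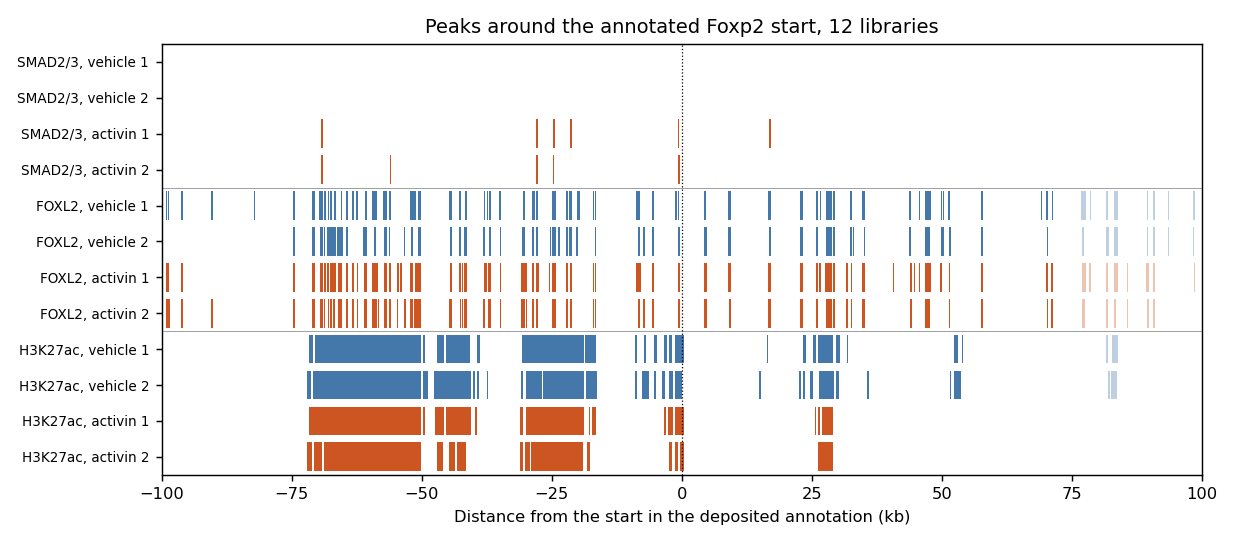
Peaks within 100 kb of the annotated Foxp2 start in the 12 libraries; the horizontal axis is the distance from the start in kb and each bar is a peak, blue for vehicle and orange for activin, pale where another gene is nearest. SMAD2/3 bars appear only in the activin rows, and short H3K27ac bars between -10 and 0 kb and beyond 20 kb are more numerous in the vehicle rows, while the broad blocks around -60 and -23 kb are in all 4.

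Acetylation at Foxp2 was arranged in broad blocks. The widest, chr6:15182269-15204099, covered 21.8 kb (19th of 53008 by width) with fold enrichments of 8.09 and 8.11 (vehicle) against 7.95 and 7.32 (activin). A second, chr6:15223201-15235515, covered 12.3 kb (125th) and held the strongest SMAD2/3 site, with 6.41, 7.14, 6.68 and 6.49 in the same order. Both were in all 4 libraries, at common ranks (among 24356 H3K27ac regions) between 92.2 and 98.8.

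Over all of Foxp2, these blocks included, the number of H3K27ac peaks was 22 and 26 (vehicle) against 15 and 14 (activin), without overlap. At a −log10 q of at least 5 the counts were 6 and 6 against 7 and 3, which overlap. Broad peaks can be split or joined, so covered length is given as well: 52.1 and 55.5 kb (vehicle) against 47.7 and 41.6 kb (activin), a ratio of 1.21 between the means. Of 26 H3K27ac regions, 7 were vehicle-only and 0 activin-only, against 6.31% and 5.82% of all H3K27ac regions within 100 kb. These 7 were weak, with fold enrichments from 2.34 to 3.40, and at a −log10 q of at least 5 none was left. The block at 26.4 kb, chr6:15280471-15283542, had common ranks of 68.3 and 70.4 (vehicle) against 46.8 and 19.7 (activin).

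Foxp1 (ENSMUSG00000030067, chromosome 6, minus strand) had 1 SMAD2/3 region, chr6:99052636-99052874 at -8.30 kb, in intron 2 of 15. It was activin-only, with fold enrichments of 6.22 and 4.59. FOXL2 at the same place, chr6:99052600-99052929, was activin-only too (8.06 and 9.13), with its summit 27 and 13 bp from the SMAD2/3 summit. No H3K27ac region called in both activin libraries overlapped this site. It was the only SMAD2/3 region of the 13 that overlapped an activin-only FOXL2 region.

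FOXL2 peaks at Foxp1 numbered 3 and 3 (vehicle) against 5 and 6 (activin). The strongest site, chr6:98997437-98997943 at 46.7 kb, had the higher values with vehicle: 28.5 and 23.7 against 18.3 and 14.6, at common ranks of 91.7 and 93.7 against 82.3 and 77.1. H3K27ac at the inner Foxp1 start, chr6:99026776-99029355, had fold enrichments of 6.07, 4.58, 5.70 and 6.03, and Foxp1 had 5 H3K27ac peaks in each library. The number of H3K27ac peaks at Foxp1 thus did not separate by treatment. Of its 3 H3K27ac regions in all 4 libraries, 1 ranked higher in both activin libraries (28% over all such regions). Another 1 ranked higher in both vehicle libraries (29.7%) and 1 was mixed.

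Most of what lies in the Foxp1 gene carries other names. Within its RefSeq span of 597.4 kb plus 5 kb on each side there were 80 FOXL2 regions, of which 73 are filed under another gene, and 24 H3K27ac regions, of which 20 are. There were 6 SMAD2/3 regions, and 5 of them are filed elsewhere. Activin-only SMAD2/3 regions filed elsewhere were chr6:99081495-99081799 (7.16 and 6.65), chr6:99117548-99118044 (7.02 and 5.86) and chr6:99500838-99501104 (4.47 and 4.01). With the one at -8.30 kb, the Foxp1 gene held 4 activin-only SMAD2/3 regions, the same number as the Foxp2 gene.

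Foxp4 (ENSMUSG00000023991, chromosome 17) had a single FOXL2 region, chr17:47887102-47887338 at -8.27 kb, activin-only with fold enrichments of 8.0 and 4.25. No SMAD2/3 or H3K27ac peak was filed under Foxp4. An H3K27ac region in its RefSeq span plus 5 kb on each side is filed under another gene. The nearest SMAD2/3 region, chr17:47975786-47976170, lay 96.8 kb from its start and is filed under Gm14871. It was called in both activin libraries (15.5 and 10.9) and in neither vehicle library.

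FOXK1 is a forkhead factor with a forkhead-associated domain, known for the control of glycolysis and autophagy genes. Foxk1 (ENSMUSG00000056493, chromosome 5, plus strand) was the only member with SMAD2/3 before activin. The region chr5:142367290-142367567 at -34.0 kb, intergenic, had a peak in all 4 SMAD2/3 libraries, with fold enrichments of 9.43 and 5.08 (vehicle) against 6.56 and 10.6 (activin). It stood 46th of 605 and 111th of 144 peaks with vehicle and 2922nd of 7784 and 756th of 5970 with activin. Over all SMAD2/3 regions within 100 kb, 1.54% had a peak in all 4 libraries. FOXL2 (10.1, 14.9, 9.19 and 13.4 in vehicle 1, vehicle 2, activin 1 and activin 2) and H3K27ac (4.57, 4.08, 4.02 and 4.0) were present there in all 4 libraries as well.

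Inside Foxk1, in intron 1 of 8, the sites at 14.9 and 23.6 kb carried the strongest FOXL2 signals of the gene. FOXL2 at chr5:142424784-142425316 had fold enrichments of 36.8 and 42.2 (vehicle) against 45 and 45.8 (activin), the highest mean percentile in the activin lists at any forkhead gene. At chr5:142416186-142416633 they were 31.6 and 30.0 against 26.6 and 25.4. Both sites were occupied before activin, at common ranks of 96.1 to 99.4 in all libraries.

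SMAD2/3 was called at both of those FOXL2 sites only with activin. At 14.9 kb, chr5:142416283-142416578, the region was activin-only with fold enrichments of 7.19 and 7.91, its summit 1 and 13 bp from the FOXL2 summit. At 23.6 kb, chr5:142424966-142425144, the peak was called in activin replicate 2 alone (5.47). A weak peak at 5.87 kb was likewise in activin replicate 2 alone (3.76).

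H3K27ac at these 2 sites ranked higher with activin. At 14.5 kb, chr5:142415642-142417294, its common rank was 21.0 and 4.03 (vehicle) against 66.2 and 74.4 (activin), and its fold enrichments were 3.07 and 2.43 against 4.61 and 4.81. At 23.8 kb, chr5:142425079-142426163, the common rank was 5.42 and 4.06 against 50.9 and 63.1. Foxk1 had 5 and 5 H3K27ac peaks (vehicle) against 7 and 9 (activin), covering 3.26 and 3.08 kb against 5.77 and 4.78 kb. Of the acetylated regions on either side of the Foxk1 start, the upstream one at -0.25 kb was mixed, with common ranks of 43.9 and 21.4 against 37.9 and 30.7. The downstream one, chr5:142401769-142402605 at 0.60 kb, ranked higher in both activin libraries, at 48.9 and 10.9 against 53.0 and 53.3, where vehicle replicate 1 lay close to the activin values.

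FOXO factors are held out of the nucleus by insulin and AKT signalling. Foxo3 (ENSMUSG00000048756, chromosome 10, minus strand) had 7 FOXL2 peaks in each library, and all 7 regions were present in all 4. The strongest with activin, chr10:42199787-42200219 at 58.3 kb, had fold enrichments of 7.83 and 5.91 (vehicle) against 13.0 and 8.87 (activin), at common ranks of 43.9 and 40.6 against 73.1 and 62.2. At chr10:42270406-42270842, -12.2 kb, the common ranks were 31.3 and 34.5 against 56.4 and 61.1. At chr10:42202031-42202297, 56.2 kb, they were 34.4 and 38.8 against 5.73 and 5.81. Of the 7 sites, 2 ranked higher in both activin libraries (25.8% over all such regions), 2 in both vehicle libraries (33.1%) and 3 were mixed.

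Foxo3 had 5, 4, 6 and 5 H3K27ac peaks, whose strongest region, chr10:42277004-42278890 at -19.5 kb, had fold enrichments of 6.36 and 5.82 (vehicle) against 5.96 and 6.43 (activin). With a region at -17.9 kb it lay on either side of the RefSeq start, and neither separated by treatment. The one SMAD2/3 peak of Foxo3, chr10:42178984-42179182 at 79.3 kb, was called in activin replicate 1 alone (5.07), with no FOXL2 summit closer than 14909 bp.

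Foxo1 (ENSMUSG00000044167, chromosome 3) had a single member peak, FOXL2 in activin replicate 2 at -12.1 kb (4.25). No acetylation was called at its start or in its gene span. FOXL2 did occupy the gene: 7 FOXL2 regions lay in its span, 3 of them in all 4 libraries, and all are filed under Gm38034. The strongest of them, chr3:52307030-52307555, had fold enrichments of 14.6 and 14.1 (vehicle) against 13.4 and 13.0 (activin).

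FOXN3 is a repressor known as a checkpoint suppressor. Foxn3 (ENSMUSG00000033713, chromosome 12, minus strand) had 6 and 7 FOXL2 peaks (vehicle) against 5 and 5 (activin), and 7 and 6 H3K27ac peaks against 3 and 4. H3K27ac covered 5.76 and 4.77 kb (vehicle) against 3.29 and 3.24 kb (activin), a ratio of 1.61 between the means. FOXL2 and H3K27ac thus both gave fewer peaks in both activin libraries at Foxn3. Taken separately, these orders were found at 5.77% (FOXL2) and 11% (H3K27ac) of all genes with a peak within 100 kb. The share of genes with both orders was not computed. At a −log10 q of at least 5 the H3K27ac counts at Foxn3 were 2 in each of the 4 libraries. The H3K27ac regions chr12:99413436-99414497 (3.57 and 3.00) and chr12:99414918-99415288 (2.78 and 2.33) were vehicle-only.

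Those acetylated regions lay on either side of the strongest FOXL2 site of Foxn3, chr12:99414559-99414995 at -21.7 kb. Its fold enrichments were 11.3 and 14.2 (vehicle) against 7.08 and 11.3 (activin), with overlap between treatments. The strongest H3K27ac region of the gene, chr12:99417367-99420263 at -25.6 kb, had common ranks of 88.4 and 79.6 (vehicle) against 79.1 and 71.4 (activin). No SMAD2/3 peak was assigned to Foxn3.

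Foxj3 (ENSMUSG00000032998, chromosome 4, plus strand) had only 1 member region, an activin-only H3K27ac region of low strength at 0.18 kb, chr4:119537072-119537314 (3.50 and 3.17). The H3K27ac region nearest its RefSeq start, chr4:119538964-119539469, is filed under AA415398 and was in all 4 libraries (4.78, 3.48, 4.39 and 4.96). In the Foxj3 span 17 FOXL2 regions are all filed under other genes. One of them, chr4:119600079-119600434, was activin-only with fold enrichments of 10.3 and 12.4.

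Foxa2, a pioneer factor of endoderm and midbrain dopamine neurons, had no SMAD2/3, FOXL2 or H3K27ac peak assigned to it within 100 kb in any library. No region of the 3 targets lay in its gene or within 5 kb of it.

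Across the members together, 6 of 13 SMAD2/3 regions were activin-only (46.2%), against 54.1% of all SMAD2/3 regions within 100 kb, and 0 were vehicle-only (0.0266%). All 6 had a −log10 q of at least 5 in both activin libraries (45.2% of all regions were activin-only by that rule). With the 4 lists cut to the length of the shortest, 144 peaks, none of the members' regions was activin-only. Even the strongest activin-only region of a member stood below that place in both activin lists. The cut could therefore keep none of them, and its count of 0 decides nothing. Of 107 FOXL2 regions, 7 were activin-only (6.54%, against 8.72% of all regions) and 2 vehicle-only (1.87%, against 3.25%). At a −log10 q of at least 5 in both libraries of the treatment these were 5 (4.67%, against 5.86%) and 0 (against 1.82%). The FOXL2 counts depended on each library: without vehicle replicate 1, 14 were activin-only and 7 vehicle-only. Without either activin replicate, 11 were activin-only and 4 vehicle-only, and without vehicle replicate 2, 5 were vehicle-only. Of 56 H3K27ac regions, 1 was activin-only (1.79%, against 5.82%) and 9 were vehicle-only (16.1%, against 6.31%). Of those 9, 7 belonged to Foxp2 and 2 to Foxn3, and at a −log10 q of at least 5 none was left in either direction (0.291% activin-only and 0.262% vehicle-only over all regions). Without vehicle replicate 1, 14 were vehicle-only. The activin-only H3K27ac count was 2 without either vehicle library and 4 without either activin library.

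Of the 65 FOXL2 regions present in all 4 libraries, 22 had a higher common rank in both activin libraries (33.8%, Wilson 95% interval 23.5% to 46.0%) and 25 in both vehicle libraries (38.5%). Over all such regions within 100 kb the shares were 25.8% and 33.1%. Without Foxp2 the first share was 5 of 23 (21.7%). Of 22 H3K27ac regions, 5 ranked higher in both activin libraries (22.7%, 10.1% to 43.4%), 3 of them at Foxk1, and 7 in both vehicle libraries (31.8%), 4 of them at Foxp2. The background shares were 28% and 29.7%. Without vehicle replicate 1 the share of H3K27ac regions ranked higher with activin was 43.5%. The intervals cover counting error only, and neighbouring regions are not independent.

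**Figure D4:**
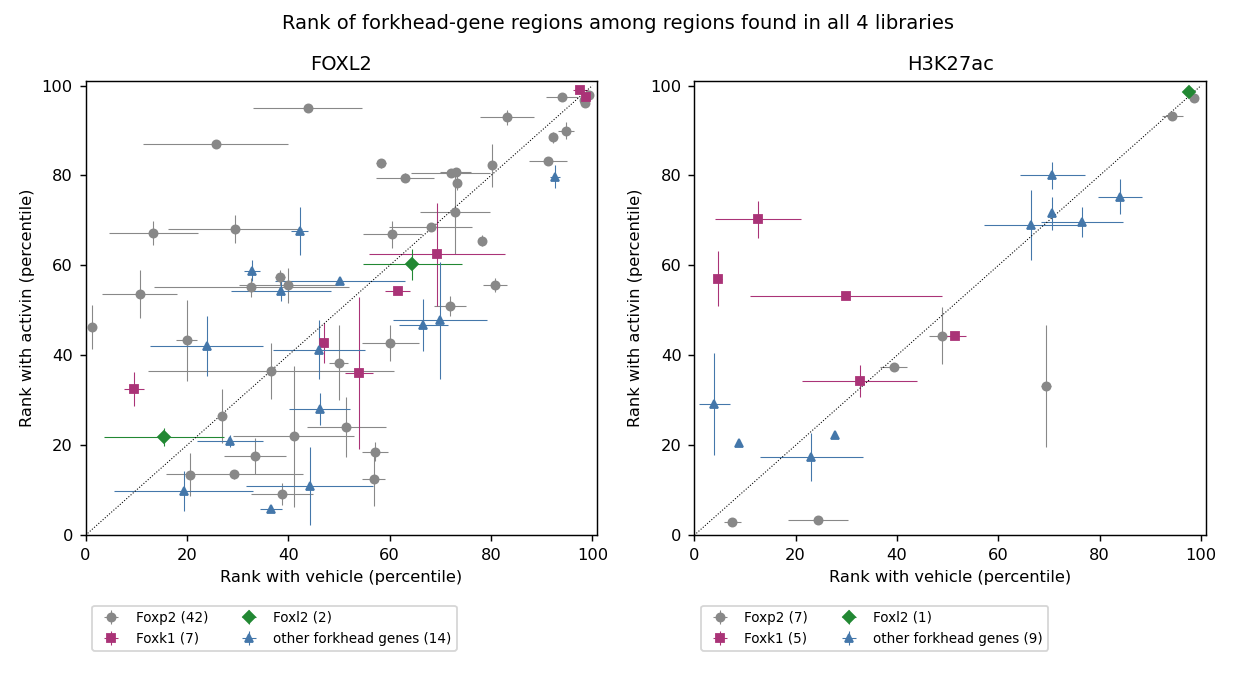
Common rank (percentile by −log10 q among regions with a peak in all 4 libraries) of forkhead-gene regions with vehicle (horizontal) and activin (vertical), for FOXL2 on the left and H3K27ac on the right. Points are means of 2 libraries, bars reach the 2 values, and the dotted line marks equal rank. FOXL2 regions of Foxp2 lie on both sides of the line, and the 2 Foxk1 H3K27ac regions at the upper left are those at 14.5 and 23.8 kb.

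The second comparison set SMAD2/3 regions beside FOXL2 and acetylation in activin-treated cells. All 7 SMAD2/3 regions of forkhead genes found in both activin libraries overlapped a FOXL2 region found in both (81.3% over all genes), and 6 of 7 overlapped H3K27ac (78.3% over all genes). The exception was the Foxp1 site at -8.30 kb. Summits of the 2 factors lay 1 to 75 bp apart at 6 of the 7 regions. At the Foxp2 region at -24.6 kb the distances were 223 and 287 bp.

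In the other direction, 7 of 79 FOXL2 regions in both activin libraries overlapped SMAD2/3 (8.86%, Wilson 95% interval 4.36% to 17.2%, against 5.27% over all genes). H3K27ac overlapped 41 of the 79 (51.9%, 41.1% to 62.6%, against 19.4%). By gene this was 30 of 52 at Foxp2, 5 of 8 at Foxk1 and 3 of 3 at Foxl2, but 1 of 7 at Foxo3, 1 of 4 at Foxp1, 1 of 4 at Foxn3 and 0 of 1 at Foxp4. The broad blocks of Foxp2 and Foxl2 each hold several FOXL2 regions, so these are not independent counts.

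The rest of the family gives the setting. Among 35 other forkhead genes, 15 had a FOXL2 region (38 in all, 15 of them in all 4 libraries), 11 had an H3K27ac region (33 in all, 19 in all 4) and 2 had a SMAD2/3 region. Both SMAD2/3 regions were activin-only: chr19:16900357-16900680 at -26.7 kb from Foxb2 (6.72 and 9.68) and chr2:152925630-152925850 at 7.46 kb from Foxs1 (4.44 and 6.58). Over all SMAD2/3 regions within 100 kb, 54.1% were activin-only. Of the 38 FOXL2 regions of these genes, 3 were activin-only and 1 vehicle-only, against 8.72% and 3.25% of all FOXL2 regions within 100 kb. Of their 33 H3K27ac regions, 3 were activin-only and 0 vehicle-only, against 5.82% and 6.31%. Foxh1, whose protein is the classical forkhead partner of SMAD2 in the embryo, had no SMAD2/3 region.

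The annotation sets a limit on all of these counts. Within the RefSeq spans of the 10 genes plus 5 kb on each side, 150 of 252 FOXL2 regions (59.5%), 41 of 93 H3K27ac regions (44.1%) and 7 of 19 SMAD2/3 regions (36.8%) are filed under another gene. Counting by span, 9 of the 19 SMAD2/3 regions were activin-only, against 54.1% of all such regions within 100 kb of a start. Of the 252 FOXL2 regions, 15 were activin-only and 9 vehicle-only, against 8.72% and 3.25%. Of the 93 H3K27ac regions, 1 was activin-only and 12 were vehicle-only, against 5.82% and 6.31%. These background shares were taken by distance to a start, not by gene span. The H3K27ac vehicle-only regions were again those of Foxp2 (10) and Foxn3 (2).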

How the data were processed

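Chromatin immunoprecipitation and sequencing of 12 libraries was compared. Per the submitters' processing notes, reads were handled with Bowtie2, MACS2 and HOMER on GRCm38/mm10; versions, settings and the use of a control are not given in the sources used here. The authors deposited a peak list per library with fold enrichment, −log10 of p and q, and a score that equals 10 times −log10 q cut to a whole number. Per the file headers, HOMER's annotatePeaks gave class, nearest gene and distance. Peaks were ranked by −log10 q inside each list, or among the regions present in all 4 libraries. These ranks and the authors' fold enrichments were then set side by side between libraries, without further scaling. In a merged region each library's values are those of its peak with the highest −log10 q. Here, with Python 3.11.15, pandas 2.3.3 and SciPy 1.17.1, peaks sharing at least 1 bp were merged and counts per library were compared with the exact two-sided permutation test over 6 labellings. Scripts were tested on simulated data. The members, gene lists and named regions were chosen with earlier results of these data known. Regions given in full were each member's strongest per antibody, all SMAD2/3 regions in both activin or any vehicle library, and treatment-specific regions at a −log10 q of at least 5; all other regions were chosen after their values were seen. Alternatives were a distance of 50 kb, −log10 q of at least 5, merging at 50 bp, lists of equal length, other gene assignment and leaving out libraries.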

Additional observations from a re-analysis of the deposited data

How the results depend on the processing

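The number of reads is unknown, so the depth limit of each list cannot be given. Over the comparisons, 119 alternative values were counted as kept, 31 as moved and 5 as reversed. For peak numbers and list shares of the members together, kept meant the same direction only, whatever the size. The SMAD2/3 share difference of -0.28 percentage points became -0.55 when the first vehicle library was dropped. It became -0.017 when the second was dropped. The FOXL2 log2 difference of 0.11 fell to 0.037 by gene span. All 3 values counted as kept. For the peak numbers of single genes, 22 values stayed close and 2 moved: the H3K27ac differences at Foxp2 (-1 peak, from -9.5) and Foxn3 (0, from -3) at a −log10 q of at least 5. Close here meant within the pooled SD between replicates. Among the 22, the FOXL2 difference at Foxp2 changed sign without vehicle replicate 2 (-0.5 peaks, from 4.5). Reversed values were the H3K27ac log2 difference of peak numbers at a −log10 q of at least 5 (0.044) and without Foxp2 (0.14), the H3K27ac share of the list under the same settings (0.0095 and 0.0069 percentage points), and the FOXL2 share at a −log10 q of at least 5 (9.68e-05). Leaving out a library gave 6 to 9 activin-only SMAD2/3 regions, 7 to 14 activin-only and 4 to 7 vehicle-only FOXL2 regions, 2 to 4 activin-only and 10 to 14 vehicle-only H3K27ac regions, and shares of regions ranked higher with activin of 35.4% to 44.4% (FOXL2) and 30.4% to 43.5% (H3K27ac). Activin-only SMAD2/3 regions numbered 10 when any region within 100 kb of a start counted, 0 (with 1 vehicle-only) at equal list length and 2 without Foxp2. Equal length kept 144 SMAD2/3 peaks per list, too few to reach any activin-only region of a member. For FOXL2 the activin-only count was 12 when any region counted, 3 without Foxp2 and 15 by gene span. Its vehicle-only count was 1 within 50 kb, 0 at a −log10 q of at least 5, 5 when any region counted, 0 without Foxp2 and 9 by span. For H3K27ac the activin-only count was 0 under the −log10 q minimum of 5 and 3 when any region counted. The vehicle-only count was 0 and, without Foxp2, 2. The share ranked higher was 21.7% for FOXL2 without Foxp2 and 0% of 9 regions for H3K27ac at a −log10 q of at least 5. The settings without Foxp2 and by gene span were chosen after seeing the data. Except where fewer regions or libraries enter by construction, the cause was not tested. Libraries share only a number: deviations of same-numbered libraries correlated at -0.011 (SMAD2/3), 0.16 (FOXL2) and -0.028 (H3K27ac), and with the replicate number as a block the log2 differences were unchanged at 2.46, 0.11 and -0.22, as were the shares at -0.28, -0.0039 and -0.016 percentage points, where the smallest possible exact p is 0.5.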
